A study of Mus musculus and Mus musculus
Rattus norvegicus with 30 samples.

Results

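The placental trophoblast set holds 10 genes that mark or drive the differentiated cells of the mouse placenta, namely Hand1, Gcm1, Dlx3, Syna, Synb, Tpbpa, Prl3d1, Tfeb, Ovol2 and Cited2. They were chosen by symbol from 44235 gene symbols listed over the 4 RNA-seq tables. The choice followed their known roles, not a threshold on measured values, and was made with earlier results of these data known. Mouse embryonic stem cells (mESC) and RMES cells, a hybrid embryonic stem cell line carrying 1 haploid mouse and 1 haploid rat genome, were transduced with lentiviral vectors that express Flag-tagged Cdx2 when doxycycline is added. The mESC RNA-seq comprised 2 libraries for each of 10 conditions. These were WT, mCdx2-OE (mouse Cdx2 overexpressed), rCdx2-OE (rat Cdx2 overexpressed) and 7 mutants of rCdx2 (R1, R2, R3, R12, R13, R23 and R123). The mutants carry every combination of 3 changes in the DNA-binding domain towards the mouse residue: Tyr to Phe (change 1), Ala to Ser (change 2) and removal of an Asn (change 3). The RMES RNA-seq comprised 2 libraries labelled WT, 1 of mCdx2-OE and 1 of rCdx2-OE, with reads split between the mouse and the rat allele. Use was also made of ATAC-seq from mESC (1 WT library and 1 mCdx2-OE library) and of Flag ChIP-seq, with 1 library per construct in either cell type for mCdx2 and rCdx2. By the paper's methods, both cell types were maintained in medium with LIF, which keeps stem cells undifferentiated. The cells are stable transduced lines, and the labels do not say whether the cells called WT carry a vector or received doxycycline. Nor do they say whether replicate libraries came from separate cultures, so p-values measure only the spread between these libraries.

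The placenta arises from the trophectoderm, the first extraembryonic lineage, which Cdx2 specifies. In rodents it matures into a labyrinth, where syncytiotrophoblast exchanges nutrients with maternal blood, a spongiotrophoblast layer, and trophoblast giant cells at the maternal border. Gcm1 and Dlx3 are transcription factors of the labyrinth, and Syna and Synb are envelope proteins of retroviral origin that fuse trophoblast cells into its syncytial layers. Hand1 is a basic helix-loop-helix factor needed for giant cells, Prl3d1 is a placental lactogen made by giant cells, and Tpbpa marks spongiotrophoblast. Tfeb, best known as a regulator of lysosomal genes, Ovol2, a zinc finger repressor of epithelial cells, and Cited2, a partner of the coactivators CBP and p300, are each required for a normal placenta but are expressed in many other tissues. In mm10, Gcm1 spans chr9:78051924-78065624 and Dlx3 chr11:95120119-95125296 on the plus strand, and Hand1 chr11:57828705-57832818 on the minus strand.

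Total counts were 74960057 to 94686029 in the 2 WT mESC libraries, against 12698443 to 24315929 in the 18 induced ones, and 29453412 to 41418817 per allele in RMES. In mESC, Cdx2 itself stood at 1.21 to 1.36 CPM (CPM being the usual depth-scaled count) in WT and at 37.2 to 147 CPM in the 18 induced libraries. In RMES the libraries labelled WT were not free of Cdx2: over both alleles it took 241 and 247 CPM there, against 592 CPM in mCdx2-OE and 474 CPM in rCdx2-OE. Levels over both alleles use total counts alone, without the TMM scaling of the values per allele. Of the mouse allele's reads, Cdx2 took 129 and 127 CPM in the libraries labelled WT, 968 CPM in mCdx2-OE and 4.45 CPM in rCdx2-OE. Of the rat allele's reads, it took 453, 440, 47.2 and 880 CPM in the same order. Each construct's library held more reads of its own species' Cdx2, and fewer of the other species', than the libraries labelled WT. Where a direction in RMES is given below, it is relative to libraries with these Cdx2 levels. In such bulk samples, fewer cells of a type and less RNA per cell cannot be told apart.

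Regions bound by Flag-tagged Cdx2 in mESC lay within 30 kb of the starts of Gcm1, Hand1 and Dlx3, as they did for 72.4% of protein-coding starts. Of the Dlx3 peaks, the nearer one, 7.4 kb downstream, is not shown. Shown first are the central 240 bases of peaks near Gcm1, Hand1 and Dlx3, with each match to TTTATNG, a core of the Cdx2 motif, in capitals on either strand (the reverse complement reads CNATAAA). All are read on the plus strand of the RefSeq GRCm38.p6 (mm10) sequence, 5′ to 3′.
Gcm1 peak 7.4 kb upstream, chr9:78044439-78044678: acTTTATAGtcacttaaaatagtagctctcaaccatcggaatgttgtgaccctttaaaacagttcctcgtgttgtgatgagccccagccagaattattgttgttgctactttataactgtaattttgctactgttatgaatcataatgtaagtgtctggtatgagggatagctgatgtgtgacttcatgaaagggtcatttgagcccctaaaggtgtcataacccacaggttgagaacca
Gcm1 intronic peak 4.8 kb downstream, chr9:78056613-78056852: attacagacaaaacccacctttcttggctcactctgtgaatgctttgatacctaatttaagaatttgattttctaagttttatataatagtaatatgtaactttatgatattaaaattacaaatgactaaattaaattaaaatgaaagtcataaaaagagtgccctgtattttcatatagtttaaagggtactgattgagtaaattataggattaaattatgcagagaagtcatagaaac
Hand1 peak 4.3 kb upstream, chr11:57836981-57837220: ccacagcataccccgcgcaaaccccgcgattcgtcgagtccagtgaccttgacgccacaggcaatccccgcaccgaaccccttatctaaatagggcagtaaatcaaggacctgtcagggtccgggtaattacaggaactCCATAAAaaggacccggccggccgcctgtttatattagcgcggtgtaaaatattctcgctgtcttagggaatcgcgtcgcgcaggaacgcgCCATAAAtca
Hand1 peak 10.6 kb upstream, chr11:57843301-57843540: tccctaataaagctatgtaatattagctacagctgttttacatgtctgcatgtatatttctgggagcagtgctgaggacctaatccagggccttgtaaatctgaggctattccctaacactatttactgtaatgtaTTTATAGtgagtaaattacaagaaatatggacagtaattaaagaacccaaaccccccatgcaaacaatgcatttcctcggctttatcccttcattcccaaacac
Dlx3 peak 18.7 kb downstream, chr11:95138711-95138950: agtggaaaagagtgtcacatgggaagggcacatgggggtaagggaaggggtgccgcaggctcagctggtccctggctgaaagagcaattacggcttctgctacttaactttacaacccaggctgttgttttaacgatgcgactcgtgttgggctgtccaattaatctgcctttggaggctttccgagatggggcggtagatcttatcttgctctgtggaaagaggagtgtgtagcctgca
Matches numbered 1, 0, 2, 1 and 0 in these windows, in the order shown. The same motif occurred in 49.7% of the central 240 bases of all 91665 mESC peaks and in 9 of the 15 peaks within 30 kb of a member start (60%). A match is only a description of letters.

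Transcripts of Gcm1, Dlx3 and Hand1 rose in mESC with Cdx2 of either species. The set's other mESC members did not follow them: Ovol2 fell, Cited2 rose by less than the 2-fold required of a call, and Tfeb did not pass the test. Of the 10 members, 7 were listed in both mESC tables and 6 passed the filter on low counts. A call required an adjusted p under 0.05 (edgeR's quasi-likelihood test, Benjamini-Hochberg adjustment over all genes) and a fold over 2. With mCdx2-OE, 4 of the 6 members tested were called, where 33.4% of all 16000 genes tested were. With rCdx2-OE, 4 of 6 were called, where 34.5% of all genes were.

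Gcm1 counted 1.08 and 0.925 CPM in the WT libraries, 19.4 and 21.3 CPM in mCdx2-OE, and 30.9 and 33.1 CPM in rCdx2-OE. The induced libraries stood far above WT without overlap, and the pair of rCdx2-OE libraries stood above the pair of mCdx2-OE libraries. The log2 fold change was 4.34 ± 0.14 (SE, n = 2 per group) with mCdx2-OE (adjusted p = 4.04e-13) and 4.99 ± 0.14 with rCdx2-OE (adjusted p = 7.80e-14). The SE comes from the fit of all 20 libraries. Dlx3, its companion in the labyrinth, counted 0.397 and 0.457 CPM in WT, 9.70 and 10.5 CPM in mCdx2-OE, and 15.5 and 16.5 CPM in rCdx2-OE. Its log2 fold changes were 4.54 ± 0.20 (adjusted p = 1.19e-11) and 5.20 ± 0.20 (adjusted p = 1.97e-12). Both transcription factors started from a low level.

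Hand1 remained scarce in absolute terms. It had 1 and 8 counts in the WT libraries (0.0142 and 0.0914 CPM), 22 and 18 counts in mCdx2-OE (0.920 and 1.17 CPM), and 30 and 17 counts in rCdx2-OE (1.15 and 1.25 CPM). Every induced library lay above both WT libraries in CPM, and the WT libraries were the more deeply sequenced. The log2 fold change was 4.07 ± 0.52 with mCdx2-OE (adjusted p = 3.24e-06) and 4.28 ± 0.51 with rCdx2-OE (adjusted p = 1.39e-06).

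Ovol2 went the other way. It counted 4.04 and 4.44 CPM in WT, 0.836 and 0.846 CPM in mCdx2-OE, and 1.58 and 0.733 CPM in rCdx2-OE. No induced library reached the WT level. Its log2 level fell by 2.33 ± 0.43 with mCdx2-OE (adjusted p = 0.000162) and fell by 1.77 ± 0.40 with rCdx2-OE (adjusted p = 0.00096).

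Cited2 was plentiful in WT, at 23.2 and 22.6 CPM. It counted 36.4 and 42.9 CPM in mCdx2-OE and 39.3 and 52.0 CPM in rCdx2-OE, above WT without overlap. The log2 fold changes were 0.79 ± 0.13 (adjusted p = 5.23e-05) and 0.99 ± 0.13 (adjusted p = 4.86e-06), below the 2-fold line. Without replicate 1 of rCdx2-OE the latter was 1.18 and past that line. Tfeb counted 46.2 and 46.3 CPM in WT, 41.7 and 39.3 CPM in mCdx2-OE, and 38.2 and 41.4 CPM in rCdx2-OE. The 4 induced libraries lay slightly below WT, with log2 differences of -0.19 ± 0.10 (adjusted p = 0.0968) and -0.22 ± 0.10 (adjusted p = 0.0582).

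The remaining members were absent or nearly so. Syna had 19 and 27 counts in the WT libraries (0.269 and 0.308 CPM), and between 0 and 5 counts in each of the 18 induced libraries (0 to 0.223 CPM). Both WT libraries lay above every induced library. The mean was 0.289 CPM in WT and 0.109 CPM over the 18 induced libraries. Syna failed the filter on low counts in mESC, so no test was made, and the WT libraries are much the deeper. Synb, Tpbpa and Prl3d1 were not listed in the table of the first replicates and were at 0 in all 10 libraries of the second, which allows up to 0.0119 CPM over these libraries together. That limit covers counting error only.

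Scaled per kilobase of summed exon length, the level in rCdx2-OE was highest for Cited2 (18.6 ± 3.7 CPM per kb, SD, n = 2) and Gcm1 (15.5 ± 0.75), which did not differ beyond their spread. Tfeb (7.02 ± 0.40) and Dlx3 (6.14 ± 0.27) followed. Hand1 (0.601 ± 0.033) and Ovol2 (0.547 ± 0.28) overlapped, and Syna came last (0.0836 ± 0.016). In WT the order was instead Cited2 (9.32 ± 0.15), Tfeb (8.16 ± 0.0059), Ovol2 (2.01 ± 0.13), Gcm1 (0.484 ± 0.052), Dlx3 (0.164 ± 0.016), Syna (0.143 ± 0.014) and Hand1 (0.0264 ± 0.027), and Dlx3 and Syna lay close together. In mCdx2-OE, Cited2 stood at 16.1 ± 1.9 CPM per kb and Gcm1 at 9.84 ± 0.67.

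**Figure D1:**
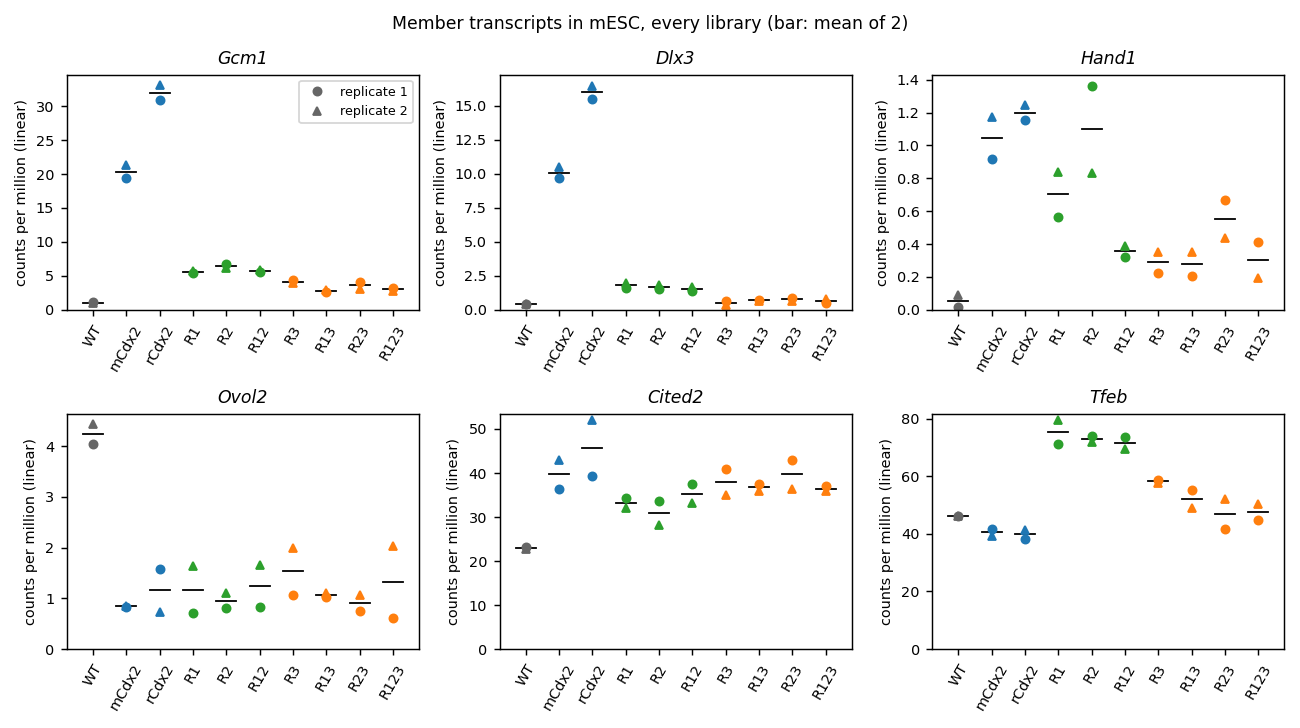
CPM (linear axis from 0) of 6 members in all 20 mESC libraries, with circles for replicate 1, triangles for replicate 2 and a bar for the mean of 2. Gcm1 and Dlx3 stand at 19.4 to 33.1 and 9.70 to 16.5 CPM with mCdx2 or rCdx2, and at 2.68 to 6.82 and 0.353 to 1.98 CPM with any mutant.

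A direct comparison of mCdx2-OE with rCdx2-OE asked whether the Cdx2 of either species drives the set differently. No member passed at an adjusted p under 0.05 in edgeR, where 0.0188% of all genes did (3 genes). Gcm1 was lower with mCdx2-OE by a log2 difference of -0.65 ± 0.12 (95% interval -0.90 to -0.40, adjusted p = 0.135) and Dlx3 by -0.67 ± 0.16 (-1.01 to -0.32, adjusted p = 0.304). These were the 2 members with an unadjusted p under 0.05, as had 857 genes in all, and DESeq2 placed Gcm1 past the threshold (adjusted p = 0.0240). The 95% intervals of the other members ran from -1.10 to 0.68 (Hand1), -1.67 to 0.55 (Ovol2), -0.48 to 0.08 (Cited2) and -0.19 to 0.25 (Tfeb). The Cdx2 transcript itself was at 97.9 and 127 CPM in mCdx2-OE and at 70.4 and 67.0 CPM in rCdx2-OE. All mESC reads were aligned to the mouse genome alone, so Cdx2 counts of mouse-sequence and rat-sequence constructs may not be comparable. The part of the Cdx2 level in this difference was not tested.

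The 7 mutants gave a much smaller rise of the labyrinth factors than either intact protein. Over the 9 constructs, Gcm1 (adjusted p = 8.16e-12), Dlx3 (adjusted p = 1.97e-11), Tfeb (adjusted p = 1.34e-06) and Hand1 (adjusted p = 0.00601) differed in a joint edgeR test, while Cited2 (adjusted p = 0.0587) and Ovol2 (adjusted p = 0.842) did not pass. That is 4 of 6 members, where 56.9% of all genes passed. The members' share was near the background. With all libraries kept, Cited2 passed in DESeq2 (adjusted p = 0.0299). In edgeR it passed with library totals alone (adjusted p = 0.00757) and with a mean of at least 50 counts required (adjusted p = 0.0403). Cited2 passed without replicate 1 of mCdx2-OE, replicate 1 of rCdx2-OE or replicate 2 of R23 (adjusted p = 0.0424, 0.0121 and 0.0457).

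Gcm1 in the 14 mutant libraries ranged from 2.68 to 6.82 CPM, with a median of 4.27 CPM, against 19.4 to 33.1 CPM in the 4 libraries of mCdx2-OE and rCdx2-OE. Dlx3 ranged from 0.353 to 1.98 CPM (median 0.837), against 9.70 to 16.5 CPM. Neither range overlapped. The contrast of the mutants' mean with that of the intact constructs was added after these levels were seen. In it, log2 Gcm1 fell by 2.58 ± 0.07 (adjusted p = 2.02e-14), log2 Dlx3 fell by 3.70 ± 0.10 (adjusted p = 4.41e-14) and log2 Hand1 fell by 1.29 ± 0.26 (adjusted p = 0.000437). Log2 Cited2 fell by 0.25 ± 0.07 (adjusted p = 0.00751), a call lost without replicate 2 of mCdx2-OE (adjusted p = 0.0651) or of rCdx2-OE (adjusted p = 0.109), whereas Tfeb was higher in the mutants by 0.57 ± 0.06 (adjusted p = 3.62e-07). Ovol2 did not pass (0.20 ± 0.30, adjusted p = 0.575). In all, 5 of 6 members passed, where 64% of all genes did. The Cdx2 transcript did not pass in the same contrast (-0.26 ± 0.27, adjusted p = 0.422). That contrast sets rat-sequence mutants partly against mouse-sequence Cdx2, all counted on the mouse genome, so these Cdx2 levels may not be comparable.

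Cdx2 transcript levels varied between the mutant libraries. Replicate 1 held more Cdx2 than replicate 2 in 7 of 7 mutants, by 1.59 to 2.39 times, while Gcm1 was higher in replicate 1 in 4 of 7, with ratios from 0.914 to 1.37. In replicate 1 of R1, R2 and R12, Cdx2 stood at 145, 147 and 145 CPM, above the 97.9 CPM of mCdx2-OE and the 70.4 CPM of rCdx2-OE, and Gcm1 stood at 5.35, 6.82 and 5.54 CPM. In replicate 2 of the same mutants, Cdx2 stood at 68.8, 61.9 and 60.6 CPM, below the 127 CPM of mCdx2-OE and on both sides of the 67.0 CPM of rCdx2-OE, and Gcm1 stood at 5.73, 6.16 and 5.93 CPM. The mCdx2-OE values come from a mouse-sequence construct and the others from rat-sequence constructs, all counted on the mouse genome. The part of the Cdx2 level in the result was not tested. The level of Cdx2 protein was not analysed here.

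Against WT, each mutant can be read on its own. R1 gave 4 of 6 members called, where 23.2% of all genes were, and so did R2 (23.4%) and R12 (23.7%). R3 gave 3 of 6 (25.6% of all genes), as did R13 (27.8%), R23 (28.7%) and R123 (28.9%). Gcm1, Hand1 and Ovol2 were called with every mutant, and Dlx3 made the difference.

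Among the mutants without change 3, Gcm1 rose by 2.47 ± 0.15 (R1), 2.69 ± 0.15 (R2) and 2.52 ± 0.15 (R12) on the log2 scale, and Dlx3 by 2.07 ± 0.24, 1.97 ± 0.25 and 1.81 ± 0.25. Among those with change 3, Gcm1 rose by 2.06 ± 0.16 (R3), 1.49 ± 0.17 (R13), 1.82 ± 0.17 (R23) and 1.59 ± 0.18 (R123). Dlx3 was not called with any of these 4. Its log2 fold changes were 0.27 ± 0.32, 0.70 ± 0.30, 0.83 ± 0.29 and 0.56 ± 0.32, with adjusted p of 0.559, 0.0728, 0.0288 and 0.189. In levels, Dlx3 ranged from 1.35 to 1.98 CPM in the 6 libraries of R1, R2 and R12 and from 0.353 to 0.891 CPM in the 8 libraries with change 3, and Gcm1 from 5.35 to 6.82 CPM and from 2.68 to 4.38 CPM. Neither pair of ranges overlapped.

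Hand1, called with all 7 mutants, ranged in log2 fold change from 2.25 ± 0.69 (R3) to 4.13 ± 0.54 (R2), on 3 to 17 counts a library. Ovol2 fell with all 7, with log2 fold changes from -1.47 ± 0.40 (R3) to -2.19 ± 0.44 (R23), and its 14 mutant libraries spanned 0.619 to 2.02 CPM, below both WT libraries. Cited2 passed the adjusted p without reaching 2-fold in all 7, from 0.43 ± 0.13 (R2) to 0.79 ± 0.13 (R23). Without replicate 1 of R123, Hand1 (adjusted p = 0.172) and Ovol2 (adjusted p = 0.0545) were no longer called there. Hand1 was no longer called in R3 or R13 without the second replicate of that mutant or without replicate 1 of WT (adjusted p from 0.0524 to 0.162), nor was Ovol2 in R3 without its replicate 1 (adjusted p = 0.0776).

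Tfeb showed a pattern of its own. It stood at 69.5 to 79.6 CPM in the 6 libraries of R1, R2 and R12, at 41.7 to 58.8 CPM in the 8 libraries with change 3, and at 38.2 to 41.7 CPM in mCdx2-OE and rCdx2-OE, around 46.2 CPM in WT. Against WT, its log2 differences were 0.70 ± 0.10 (R1), 0.65 ± 0.10 (R2), 0.63 ± 0.10 (R12) and 0.33 ± 0.10 (R3), each with an adjusted p under 0.05 but below 2-fold. R13 (0.17), R23 (0.02) and R123 (0.04) did not pass.

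**Figure D2:**
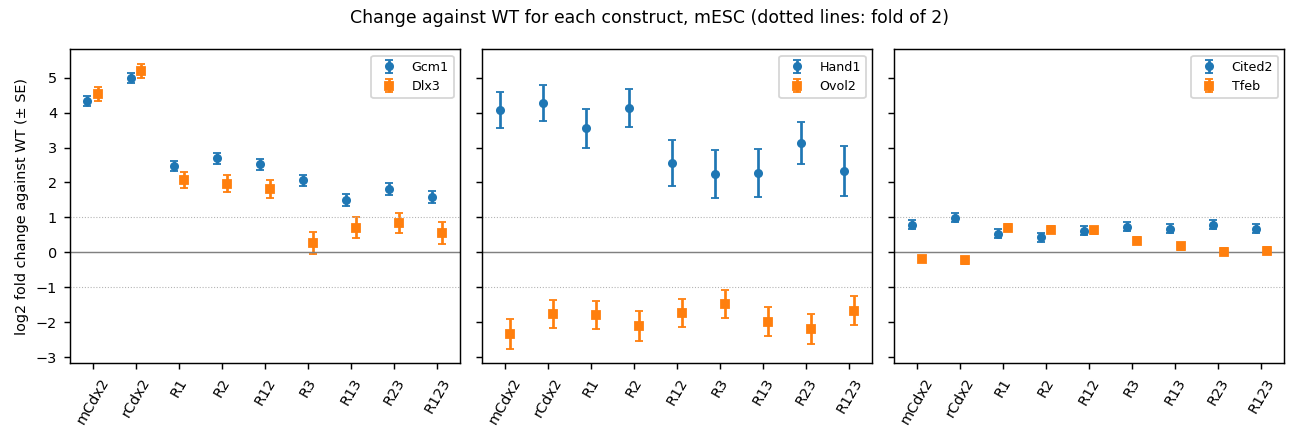
Log2 fold change against WT (± SE, 2 libraries per group) of 6 members for each of the 9 constructs in mESC. Gcm1 and Dlx3 drop from between 4.34 and 5.20 with the intact proteins to 2.69 or less with each mutant, Ovol2 stays between -2.33 and -1.47, and Tfeb lies between -0.22 and 0.70.

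The effect of each amino acid change was estimated additively from the 16 libraries of rCdx2 and its mutants. For change 3, 3 of 6 members passed, all lower, where 36.6% of all genes passed, so the share was not far from the background. Log2 Gcm1 fell by 1.59 ± 0.31 (adjusted p = 0.000778), log2 Dlx3 fell by 2.49 ± 0.49 (adjusted p = 0.00091) and log2 Hand1 fell by 1.19 ± 0.28 (adjusted p = 0.00377). These estimates include rCdx2-OE as the only construct without a change, unlike the matched mutants below. The Cdx2 transcript fell by 0.74 ± 0.26 with change 3 as well (adjusted p = 0.0367), and its part in the result was not tested. The count was 4 of 6 without replicate 1 or replicate 2 of rCdx2-OE or replicate 1 of R3. For changes 1 and 2, 0 of 6 members and 0% of all genes passed in edgeR. At an unadjusted p under 0.05, change 1 had 1995 genes, among them Gcm1, Dlx3 and Hand1, and change 2 had 1569, among them Gcm1 and Dlx3, while DESeq2 passed 22 and 1 genes and no member. The additive estimates for Gcm1 were -1.04 ± 0.31 (change 1) and -0.75 ± 0.31 (change 2), and for Dlx3 -1.35 ± 0.48 and -1.30 ± 0.48. The fit assumes that changes add up on the log2 scale, whereas Gcm1 in R12 (5.54 and 5.93 CPM) lay no lower than in R1 (5.35 and 5.73 CPM). R1 itself lay far below rCdx2-OE (30.9 and 33.1 CPM). Such a misfit widens the errors of the fit, so the 0 of 6 and 0% for changes 1 and 2 do not show that these changes lack an effect. Neither R1 nor R2 was tested directly against rCdx2-OE.

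Comparing R13, R23 and R123 with R1, R2 and R12 bears on change 3 within mutants that share the other changes, and was added after the levels were seen. Log2 Gcm1 fell by 0.93 ± 0.09 (adjusted p = 1.17e-06), log2 Dlx3 fell by 1.25 ± 0.17 (adjusted p = 2.33e-05) and log2 Tfeb fell by 0.59 ± 0.06 (adjusted p = 9.20e-07). Hand1 missed the threshold (-0.84 ± 0.34, adjusted p = 0.0551) and passed without replicate 2 of R2 (adjusted p = 0.0493). With 3 of 6 members against 43.8% of all genes, the share was near the background, and log2 Cdx2 fell by 0.98 ± 0.29 in the same contrast (adjusted p = 0.0113).

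R123, the rat protein with all 3 mouse residues, was also compared with mCdx2-OE, which carries the same residues at these sites, again after the levels were seen. Log2 Gcm1 fell by 2.75 ± 0.15 (adjusted p = 1.07e-09), log2 Dlx3 fell by 3.97 ± 0.24 (adjusted p = 4.39e-09) and log2 Hand1 fell by 1.75 ± 0.55 (adjusted p = 0.0178), which made 3 of 6 members, where 42.4% of all genes passed. Hand1 did not pass without replicate 2 of mCdx2-OE (adjusted p = 0.0703) or of R123 (adjusted p = 0.157). Cdx2 transcript was at 61.9 and 39.0 CPM in R123 and at 97.9 and 127 CPM in mCdx2-OE, and the difference did not pass (-1.16 ± 0.50, adjusted p = 0.0725). Rat-sequence R123 and mouse-sequence mCdx2 were both counted on the mouse genome, so these Cdx2 levels may not be comparable.

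Over the 10 mESC conditions, the genes whose mean log2(CPM + 1) followed each member most closely among 11898 genes were as follows, as a description over 10 points that share constructs and libraries. Gcm1 was nearest to Nrk, a kinase gene of the spongiotrophoblast (Pearson r = 0.995), and Bcor (r = 0.995). Dlx3 was nearest to Prickle1 (r = 0.994) and Anxa5 (r = 0.992), and Tfeb to Xpo5 (r = 0.993) and Ptbp1 (r = 0.991). Ovol2 was nearest to Tmem55b (r = 0.977) and Cuedc2 (r = 0.976), and Cited2 to Mindy2 (r = 0.976) and Ppfibp1 (r = 0.975).

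In RMES cells the same 3 factors rose from near 0 on both alleles, and here Syna joined them on the mouse allele. All 10 members were listed for the mouse allele and 8 for the rat allele, where Syna and Synb had no entry. The mCdx2-OE and rCdx2-OE libraries served together as 2 replicates of Cdx2-OE. On the mouse allele 5 of 7 members tested were called, where 44.5% of all 16887 genes were, and on the rat allele 5 of 6, where 42.5% of 14627 genes were.

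Gcm1 on the mouse allele had 1 and 5 counts in the libraries labelled WT, 572 in mCdx2-OE and 806 in rCdx2-OE. On the rat allele it had 2 and 2, 667 and 941. Pooled, the level in CPM was 187 times (95% counting interval 85.8 to 511) and 304 times (119 to 1117) that of the libraries labelled WT. The fitted log2 fold changes were 7.50 ± 0.35 (adjusted p = 7.73e-10) and 8.17 ± 0.32 (adjusted p = 4.82e-12). Both alleles had few reads in the libraries labelled WT, and the groups did not overlap on either allele. Leaving out 1 library moved the fold from 6.84 to 8.91 on the mouse allele and from 7.92 to 8.38 on the rat allele.

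Dlx3 had 6 and 0 counts on the mouse allele in the libraries labelled WT, then 597 in mCdx2-OE and 598 in rCdx2-OE. On the rat allele it had 0 and 3, then 985 and 1125. The pooled ratios were 162 (74.4 to 443) and 532 (182 to 2582). The log2 fold changes were 7.29 ± 0.35 (adjusted p = 1.06e-09) and 8.96 ± 0.29 (adjusted p = 5.70e-13). With 1 library left out they ran from 6.23 to 12.15 and from 8.06 to 12.9, and the highest values arose where the remaining library labelled WT was at 0, where a fitted fold depends on the prior count.

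Hand1 had 6 and 1 counts on the mouse allele in the libraries labelled WT, and 259 and 264 with mCdx2-OE and rCdx2-OE. On the rat allele it had 1 and 0, then 128 and 143. The pooled ratios were 60.9 (29.4 to 152) and 205 (36.5 to 8125), with log2 fold changes of 5.88 ± 0.37 (adjusted p = 1.08e-08) and 7.40 ± 0.54 (adjusted p = 4.64e-09). The leave-one-out ranges were 5.04 to 7.65 and 6.47 to 9.98. The intervals of these ratios cover counting error only.

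Syna, listed for the mouse allele alone, had 0 counts in both libraries labelled WT, 19 in mCdx2-OE and 16 in rCdx2-OE. Its level was at least 9.51-fold higher with Cdx2, taking 3 counts over both libraries labelled WT as the floor (adjusted p = 0.000157). Synb had 3 counts in mCdx2-OE and 0 in the other 3 libraries. Tpbpa was at 0 on the mouse allele and had 1 rat read in rCdx2-OE, and Prl3d1 was at 0 on both alleles. Syna was therefore detected at a low level on the mouse allele, and Synb, Tpbpa and Prl3d1 were at or near 0.

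The 3 broadly expressed members fell or diverged between the alleles. Tfeb on the mouse allele counted 169 and 170 CPM in the libraries labelled WT, 50.8 CPM in mCdx2-OE and 45.8 CPM in rCdx2-OE. On the rat allele it counted 147, 143, 74.9 and 65.4 CPM. Its log2 level fell by 1.81 ± 0.06 (adjusted p = 4.30e-11) and fell by 1.05 ± 0.07 (adjusted p = 1.08e-09). The latter lies near the 2-fold line, and the log2 difference was -0.95 without rCdx2-OE, -0.84 with library totals alone and -0.98 under a stricter filter.

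Ovol2 counted 1.30 and 1.62 CPM on the mouse allele in the libraries labelled WT, then 0.739 and 0.885 CPM. On the rat allele it counted 11.5 and 10.6 CPM, then 3.15 and 2.93 CPM. It was called on the rat allele, where log2 Ovol2 fell by 1.86 ± 0.15 (adjusted p = 2.09e-08), and not on the mouse allele, where the log2 difference was -0.84 ± 0.29 (adjusted p = 0.0180) on 31 to 58 counts a library.

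Cited2 counted 55.0 and 57.3 CPM on the mouse allele in the libraries labelled WT and 32.1 and 31.0 CPM with Cdx2. On the rat allele it counted 33.0 and 32.7 CPM, then 41.1 and 40.6 CPM. The log2 difference was -0.83 ± 0.07 on the mouse allele (adjusted p = 1.18e-07) and 0.31 ± 0.07 on the rat allele (adjusted p = 0.000981), both short of 2-fold. Within the same cells, the 2 alleles of Cited2 thus moved in opposite directions in both Cdx2-OE libraries.

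The response of each allele was then compared in 1 fit of both alleles, with genes paired by identical symbol and a term for each library. The rat response exceeded the mouse response for Cited2 by a log2 difference of 1.16 ± 0.08 (adjusted p = 7.11e-14) and for Tfeb by 0.77 ± 0.04 (adjusted p = 4.48e-16), whose fall was the smaller on the rat allele. For Ovol2 it was lower by -1.01 ± 0.32 (adjusted p = 0.00755), a call lost without replicate 1 of the libraries labelled WT (adjusted p = 0.0716), without rCdx2-OE (adjusted p = 0.0897) and in DESeq2 (adjusted p = 0.0554). For Gcm1 (0.69 ± 0.95), Dlx3 (1.68 ± 1.17) and Hand1 (1.56 ± 1.27) the difference did not pass (adjusted p = 0.555, 0.217 and 0.297), with 95% intervals of -1.26 to 2.64, -0.70 to 4.07 and -1.04 to 4.15, and the libraries labelled WT held at most 6 reads of any of them. For Dlx3 it was -3.97 without replicate 1 and 6.81 without replicate 2 of the libraries labelled WT, and for Gcm1 -0.77 without replicate 2. That makes 3 of 6 members, where 62.3% of all 13605 genes passed, so a difference between the alleles was common in these data.

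Per kilobase of exon, and scaled to each allele's own total, Gcm1 in Cdx2-OE stood at 7.96 ± 1.9 CPM per kb (SD, n = 2) on the mouse allele and 14.1 ± 3.2 on the rat allele. Dlx3 stood at 5.47 ± 0.019 and 10.6 ± 0.84, and Hand1 at 3.13 ± 0.050 and 3.38 ± 0.22. The Hand1 alleles lay close together, at 3.09 and 3.16 CPM per kb on the mouse allele and 3.23 and 3.53 on the rat allele in mCdx2-OE and rCdx2-OE. This difference was not tested. The order of the 3 was the same on both alleles as for mESC, and gene lengths come from separate annotations of either species.

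**Figure D3:**
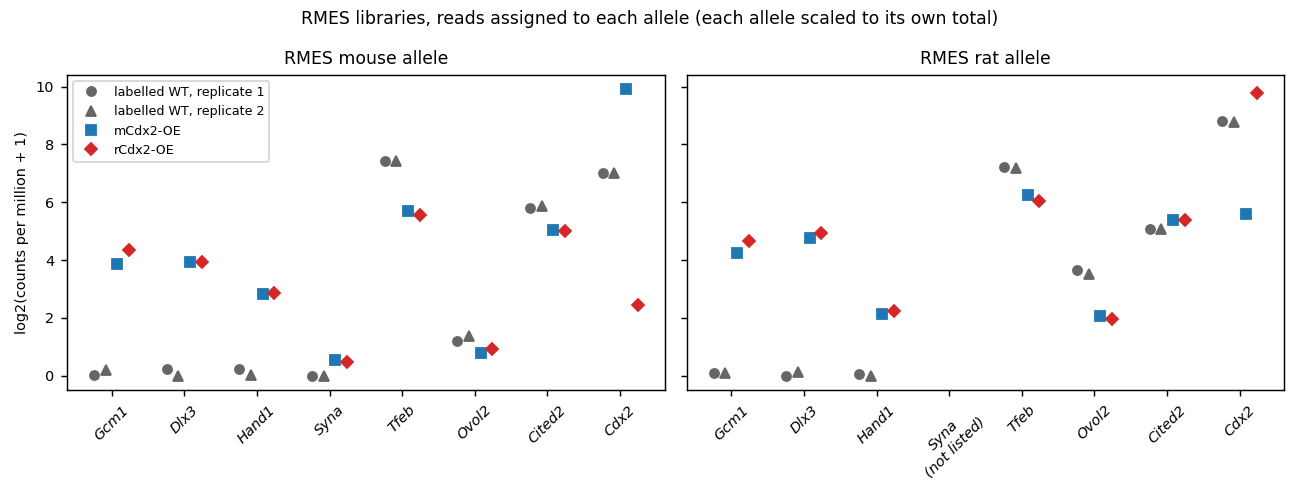
Level of 7 members and Cdx2 as log2(CPM + 1) in the 4 RMES libraries, for reads of the mouse allele (left) and of the rat allele (right). Gcm1, Dlx3 and Hand1 lie near 0 in both libraries labelled WT and at 3.41 to 29.4 CPM with Cdx2, Tfeb and Ovol2 are lower with Cdx2 on both alleles, and Cited2 is lower on the mouse allele and higher on the rat allele.

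Chromatin around the members was examined in peaks whose span overlapped 30 kb to either side of the annotated start (GENCODE vM21, mm10). In mESC, 9 of the 10 members had at least 1 Cdx2 ChIP-seq peak there, where 72.4% of 21951 protein-coding starts did, and in RMES 6 of 10 had a peak on the mouse allele, where 63.7% did. The share in mESC is not far from that background. Synb had none in either cell type, and Dlx3, Prl3d1 and Cited2 had one in mESC only. Each condition had 1 library, so no test was made. Intervals below cover counting error only, and which ChIP column is mCdx2 was inferred from the first letter of its name.

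Read pairs and ranks were compared for the peaks near the responding genes. The Gcm1 peaks 7.4 kb upstream and 4.8 kb into the gene, in an intron, held 38 and 44, and 30 and 29 read pairs with mCdx2 and rCdx2, at the 46.1 and 25.0 percentiles of all peaks. Peaks 7.4 kb upstream and 4.7 kb into the gene on the RMES mouse allele held 37 and 32, and 45 and 43 read pairs (42.1 and 58.1 percentiles of the peaks there). For Hand1, the peak 10.6 kb upstream held 59 and 36 read pairs in mESC (53.7 percentile), the one 10.7 kb upstream in RMES held 80 and 49 (76.1 percentile), and the one 4.3 kb upstream held 36 and 33 in mESC (35.0 percentile). The Dlx3 peaks, 7.4 and 18.7 kb from the start and beyond the end of the gene, held 24 and 16, and 20 and 21 read pairs, at the 3.3 and 4.7 percentiles. On the RMES mouse allele, Dlx3 had no peak even within 100 kb. The strongest peak near any member in mESC, 28.0 kb downstream of Tpbpa, held 103 and 116 read pairs (87.2 percentile), although Tpbpa had no transcript. On the RMES mouse allele the strongest lay at the same distance from Tpbpa and held 159 and 115 read pairs (96.1 percentile).

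Summed over 30 kb and scaled to equal totals, rCdx2 over mCdx2 reads in mESC differed by log2 ratios of -0.29 (Hand1, 95% interval -0.74 to 0.15) to 0.28 (Ovol2, -0.57 to 1.14), and the interval of each of the 9 members with a peak held 0. On the RMES mouse allele it held 0 for 5 of 6 members. The exception was Ovol2, whose intronic peak 5.1 kb downstream had 56 read pairs with mCdx2 and 18 with rCdx2, a log2 ratio of -1.23 (-2.00 to -0.47), against 21 and 23 in mESC. Over 100 kb to either side the Ovol2 ratio was -0.29. The middle 90% of all mouse-allele peaks lay between -0.65 and 0.68.

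ATAC-seq reads, which mark open chromatin, were higher around Gcm1 and lower around Ovol2 in mCdx2-OE than in WT. Around Gcm1, 11 peaks held 269 read pairs in WT and 551 in mCdx2-OE, a scaled log2 ratio of 0.59 (0.38 to 0.80). The ratio was highest 6.5 kb upstream (11 to 62 read pairs, log2 ratio 1.98), 2.8 kb upstream (6 to 31, 1.79) and 7.8 kb downstream (11 to 34, 1.13), while the peak at the start itself had 19 and 16 (-0.65). Around Ovol2, 8 peaks held 396 and 325 read pairs, a log2 ratio of -0.72 (-0.93 to -0.51). The ratio was lowest in an intron 21.7 kb downstream of the start (60 to 6 read pairs, -3.53) and 16.5 kb upstream (22 to 2, -3.30), and 0.05 at the peak over the start (106 and 149). For comparison, the median of all 122350 peaks was -0.14, with 90% of them between -2.03 and 2.34.

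The other members showed less. Dlx3 had 11 peaks and a log2 ratio of -0.10 (-0.31 to 0.10), and Hand1 had 10 peaks and -0.09 (-0.31 to 0.13). Within those, the Hand1 peak 4.2 kb upstream, which overlaps its ChIP-seq peak with 2 motif matches, went from 13 to 36 read pairs (0.99). Cited2 stood at -0.03 (-0.20 to 0.14), Syna at -0.27 (-0.47 to -0.08) and Tfeb at -0.29 (-0.41 to -0.17), where a peak 6.0 kb upstream went from 94 to 29 read pairs (-2.09). Without scaling, the ratios of Hand1, Dlx3, Cited2, Syna and Tfeb turned positive (0.35, 0.34, 0.41, 0.16 and 0.15), while those of Gcm1 (1.03) and Ovol2 (-0.28) kept their sign over 30 kb. Over 10 and 100 kb, the scaled ratio of Ovol2 was -0.33 and -0.31 and the unscaled one 0.10 and 0.13, and the scaled ratio of Gcm1 was 0.70 and 0.25. Synb, Tpbpa and Prl3d1, the members without transcript in mESC, had no ATAC-seq peak within 30 kb, where 87.0% of protein-coding starts had one.

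**Figure D4:**
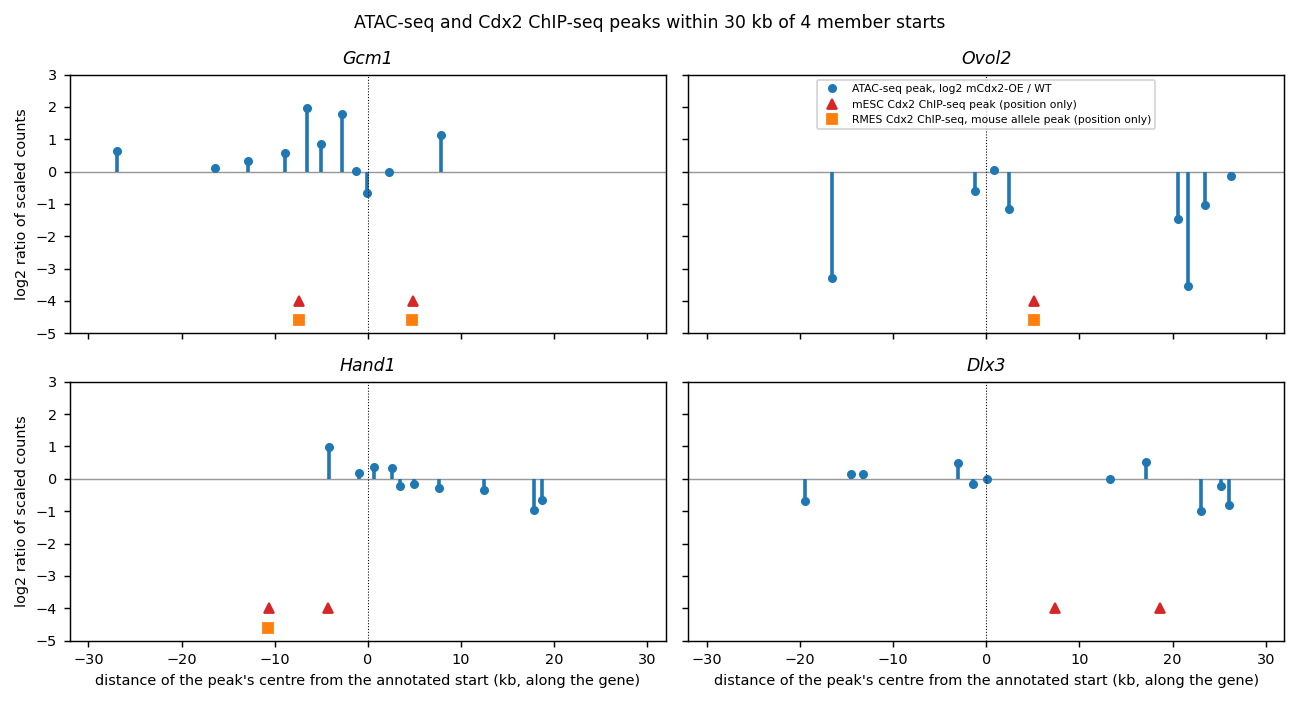
Log2 ratio of scaled ATAC-seq counts, mCdx2-OE over WT, of each peak within 30 kb of 4 member starts against its distance from the start in kb, with triangles and squares for the positions of Cdx2 ChIP-seq peaks in mESC and on the RMES mouse allele. Gcm1 peaks lie mostly above 0, up to 1.98, Ovol2 peaks mostly below 0, down to -3.53, and Hand1 and Dlx3 peaks lie between -1.01 and 0.99.

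Genes of the same placental layers were counted for context, from lists chosen with earlier results of these data known. Of all genes tested in mESC, 33.4% were called with mCdx2-OE and 34.5% with rCdx2-OE. Of 12 further labyrinth and syncytiotrophoblast genes, 11 were tested in mESC, of which 7 rose and 1 fell with mCdx2-OE (median log2 fold change 3.55, against -0.03 over all genes), and likewise 7 and 1 with rCdx2-OE (3.65, against -0.04). Gjb2, a connexin of the labyrinth (6.79 ± 0.15, adjusted p = 1.18e-14), and Peg10, an imprinted gene of retroviral origin (4.86 ± 0.11, adjusted p = 1.34e-14), rose with mCdx2-OE, and Slc16a3, a lactate transporter, fell by 1.37 ± 0.16 (adjusted p = 1.08e-06). Of 24 giant cell and spongiotrophoblast genes 12 were tested, of which 10 rose and 1 fell with mCdx2-OE (median 2.22) and 9 and 0 with rCdx2-OE (2.82). The 12 untested ones include the prolactin family and cathepsins of mature giant cells, which were too low or not listed in both tables. Plac1, a placental membrane gene, rose by 6.41 ± 0.22 (adjusted p = 5.89e-13), and Nrk by 4.34 ± 0.13 (adjusted p = 1.67e-13).

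In the mutants, from 23.2% (R1) to 28.9% (R123) of all genes were called against WT. Beside that, 6 to 8 labyrinth genes were higher and 1 lower, with medians from 1.40 to 2.59. Of the giant cell and spongiotrophoblast genes, 3 to 8 were higher and 1 to 3 lower, with medians from 0.10 to 1.17. Against mCdx2-OE and rCdx2-OE together, all 12 giant cell and spongiotrophoblast genes tested were lower in the mutants (median -2.23), and 8 labyrinth genes were lower and 2 higher (median -1.45), where 64% of all genes differed. The trophoblast stem cell list had 7 of 9 lower and 1 higher in that contrast (median -0.59), and the pluripotent cell list 4 of 5 higher (median 0.48). The mesoderm list had 1 of 10 higher and 2 lower (median -0.06), and the epithelial list 2 of 3 lower (median -0.40). Against WT, 5 to 8 of the 10 mesoderm genes were higher and 2 lower in each mutant.

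The lists of neighbouring cell types were counted too, beside 2946 genes higher and 2393 lower of all 16000 (33.4% called) with mCdx2-OE and 3044 and 2469 (34.5%) with rCdx2-OE. With mCdx2-OE in mESC, 5 of 9 trophoblast stem cell genes rose (Gata2, 5.25 ± 0.12, adjusted p = 1.34e-14), 6 of 10 mesoderm genes rose and 2 fell, 2 of 3 genes of surface ectoderm and other epithelium rose and 1 fell, and 1 of 5 pluripotent cell genes fell (Pou5f1, by 1.47 ± 0.23, adjusted p = 3.02e-05). With rCdx2-OE these counts were 5 up and 1 down, 5 and 2, 2 and 1, and 0 and 2. The trophoblast stem cell gene that fell with rCdx2-OE was Eomes. Its mean was 8.19 CPM in WT, 4.86 CPM in mCdx2-OE, where it was not called, and 3.59 CPM in rCdx2-OE. Hand1 is also a gene of extraembryonic and lateral mesoderm, and Dlx3 of surface ectoderm. Hand2, a relative of Hand1 (2.56 ± 0.42, adjusted p = 4.57e-05), and Trp63, a regulator of stratified epithelium (2.42 ± 0.61, adjusted p = 0.00205), were among those that rose with mCdx2-OE. The mesoderm genes that fell were T and Bmp4 (by 3.59 ± 0.26, adjusted p = 4.24e-09), and the epithelial gene that fell was Grhl2 (by 2.33 ± 0.19, adjusted p = 1.66e-08). The part of such cells in the result was not tested.

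Over all genes in RMES, 4787 were higher and 2721 lower of 16887 on the mouse allele (44.5% called), and 4140 and 2078 of 14627 on the rat allele (42.5%). There, 8 labyrinth genes rose and 1 fell of 12 tested on the mouse allele (median 3.03, against 0.08 over all genes), and 5 and 2 of 9 on the rat allele (1.09, against 0.07). For the giant cell and spongiotrophoblast list the counts were 9 and 1 of 12 (3.54), and 5 and 1 of 9 (1.65). Trophoblast stem cell genes gave 4 and 0 of 9, and 6 and 0 of 9, mesoderm genes 4 and 2 of 10, and 5 and 1 of 6, epithelial genes 1 and 0 of 4, and 3 and 0 of 3, and pluripotent cell genes 0 and 3 of 5, and 0 and 3 of 4. Esx1 (9.15 ± 0.16, adjusted p = 3.49e-13), a labyrinth homeobox gene, and Phlda2 (9.13 ± 0.21, adjusted p = 2.93e-12), an imprinted growth restraint of the placenta, rose most on the mouse allele among the labyrinth and spongiotrophoblast lists. The mesoderm genes that fell there were T and Bmp4, a signalling ligand (fell by 3.94 ± 0.10, adjusted p = 5.62e-12).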

How the data were processed

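Per the submitters' processing notes and the methods, RNA-seq reads were aligned with STAR 2.7.0d to mm10 and counted per gene by strand with featureCounts. RMES reads were assigned to mm10 or rn6 by edit distance. The deposited values are counts of read pairs per gene, with no normalisation by the authors, beside a gene length. Replicates 1 and 2 of the mESC libraries were counted in separate runs with different pair filters, and the 19919 genes in both tables were used. ChIP-seq and ATAC-seq reads were aligned with Bowtie2 2.3.4.3, MACS2 peaks were called by the authors on merged libraries, and the deposited counts give read pairs per peak in each library.

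Genes were tested with edgeR 4.0.16 (quasi-likelihood test, TMM factors, filterByExpr, R 4.3.3) with Benjamini-Hochberg adjustment over all genes tested. The mESC comparisons came from 1 fit of 20 libraries, the effects of changes 1 to 3 from 16 libraries, each RMES allele from 4 libraries, and the allele difference from both alleles with a term for each library. CPM values use library totals after TMM. Exceptions are the Cdx2 levels over both RMES alleles and the limit for Synb, Tpbpa and Prl3d1 in mESC, which use total counts alone. A call against WT needed an adjusted p under 0.05 and a fold over 2, and other comparisons needed the adjusted p alone. The SE of a log2 fold change is its size over the square root of edgeR's F, with dispersion shared over all libraries of the fit. At low counts this SE and its interval can be narrower than the test's p-value implies. Intervals are 95%, and counting intervals and floors cover counting error only. Peak counts were scaled to equal library totals and 1 was added. The tests were tried on simulated data with known changes. Alternatives were other scalings, other filters, other fold thresholds, DESeq2 1.42.0, a replicate term, leaving out each library, and windows of 10 and 100 kb.

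The genes named are the 10 members, Cdx2, the genes of 6 lists (labyrinth, giant cell and spongiotrophoblast, trophoblast stem cell, mesoderm, surface ectoderm and other epithelium, pluripotent cell) and, for members with a mean of at least 50 counts, the 2 genes nearest in pattern. The members and lists were chosen with earlier results of these data known. Equal replicate numbers were not taken as pairs, since nothing in the labels says that they mark a shared culture or day and replicate differences correlated over 0.1 in 22, not all, of 45 pairs of conditions. Peaks on the rat genome were not used here.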

Additional observations from a re-analysis of the deposited data

Results flagged for a closer look

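In RMES cells, the response to Cdx2 differed between the alleles for 3 members in the test of that difference (edgeR's quasi-likelihood test, Benjamini-Hochberg adjustment). For Cited2 the rat response minus the mouse response was 1.16 on the log2 scale, with the rat allele higher and the mouse allele lower in both Cdx2-OE libraries. For Tfeb it was 0.77, with a fall on both alleles. For Ovol2 it was -1.01, with 31 to 58 counts a library on the mouse allele, and the call was lost in DESeq2 (adjusted p = 0.0554), without replicate 1 of the libraries labelled WT (adjusted p = 0.0716) and without rCdx2-OE (adjusted p = 0.0897). Of all 13605 genes, 62.3% passed this test.

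Syna was set side by side in the 2 cell types. In mESC, where it failed the filter on low counts and was not tested, its mean was 0.289 CPM in WT, above all 18 induced libraries, while on the RMES mouse allele it was at 0 in both libraries labelled WT and had 19 and 16 counts with Cdx2. This difference between the cell types was not tested.

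Cited2 on the RMES mouse allele had a log2 fold change of -0.83, with both Cdx2-OE libraries below both libraries labelled WT, whereas all 18 induced mESC libraries lay above WT. This difference was not tested either. The libraries labelled WT held 241 and 247 CPM of Cdx2 in RMES (both alleles, without TMM) and 1.21 and 1.36 CPM in mESC, and the part of that in either result was not tested.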

How the results depend on the processing

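Counts of members called stayed within 1.5 times in 284 of 292 recomputations. Without a fold threshold they were 5 for R3 and 5 for R23. With a fold over 4 they were 2 for R12, 1 for R13, 1 for R123 and 3 for the RMES rat allele. DESeq2 called 1 member between mCdx2-OE and rCdx2-OE. Leaving out 1 library at a time gave 1 to 3 members for R123 against WT, with the 1 arising without its replicate 1. Of the single members' values, 5 of 1265 changed sign, each when 1 library was left out: Dlx3 in R3 ranged from -0.28 to 0.65, Tfeb in R23 from -0.14 to 0.18, Tfeb in R123 from -0.044 to 0.12, and the allele difference from -3.97 to 6.81 for Dlx3 and from -0.77 to 1.42 for Gcm1. The cause was not tested. Over all genes, the 3 genes called between mCdx2-OE and rCdx2-OE became 22 in DESeq2 and 1 with library totals alone, and the counts for changes 1 and 2 became 22 and 1 in DESeq2. Requiring a mean of 50 counts, which tests fewer genes, lowered the count from 5339 to 3014 for mCdx2-OE, from 5513 to 3135 for rCdx2-OE and from 7508 to 4693 for the RMES mouse allele. Without a fold threshold these were 11158, 11294 and 13823, and with a fold over 4 they were 2211, 2329 and 4047.

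Of the log2 ratios of reads in peaks, 18 of 61 moved and 43 did not. Equal replicate numbers were not taken as pairs: over 45 pairs of conditions, the correlation of the replicate difference ran from -0.21 to 0.64 (median -0.020), with 22, not all, over 0.1. Many conditions therefore shared a difference between the replicate sets, which were counted in separate runs, and the Cdx2 transcript was higher in replicate 1 in 7 of 7 mutants. With the replicate block, 4 members were called for mCdx2-OE and 4 for rCdx2-OE, no count of members changed, and 1 gene differed between mCdx2-OE and rCdx2-OE. Hand1, with 1 to 30 counts a mESC library, and the RMES levels in the libraries labelled WT are the values that depth limits most.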
